A study of Homo sapiens with 6 samples.

Results

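The genes described here were the interferon regulatory factor (IRF) genes IRF1, IRF2, IRF3, IRF4, IRF5, IRF7, IRF8 and IRF9, together with IRF2BP2, which encodes a co-repressor of IRF2. These 9 genes were chosen by name, from 20033 protein-coding genes of GENCODE version 44, and not by a threshold on a measured value. Earlier results of these data were known when they were chosen, so that comparisons with all genes are description only. For each gene, the peaks of GSE1 overlapping its annotated span extended by 50 kb on each side were collected, and this stretch is called its window. The windows held 33 of the 21401 peaks found in DMSO-treated cells and 27 of the 13233 peaks found in MC2580-treated cells. A peak in a window is not thereby assigned to the gene, as most windows also contain other genes.

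The data were ChIP-seq profiles of V5-tagged GSE1, a partner of the histone demethylase LSD1, in NB4, a human acute promyelocytic leukaemia cell line. The cells carried the lentiviral pLEX_307 vector with the coding sequence of GSE1 transcript variant 2, and were exposed for 24 h to the LSD1 inhibitor MC2580 at 2 µM or to DMSO alone. NB4 cells with the empty pLEX_307 vector (EV), for which no exposure time or dose is listed, provided a negative V5 ChIP. Each of these 3 ChIPs had an input. All 6 groups thus held 1 library, so that differences between the lists are differences between these libraries and no test between the conditions was possible. The tagged protein was introduced into the cells in addition to endogenous GSE1, and the study describes that the drug also lowers its amount. A lower amount of GSE1 and a lower affinity for a site cannot be told apart in these lists. Both lists were called against the same EV library, so that they are not independent. The study asked where GSE1 lies on chromatin and how the inhibitor alters this.

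IRF proteins share a DNA-binding domain that recognises GAAA repeats, and they switch on interferon genes and the genes that interferons induce. IRF3, IRF7 and IRF5 are latent in the cytoplasm and are activated by kinases downstream of pathogen sensors. IRF1, IRF2 and IRF9 act mainly at interferon-stimulated genes, whereas IRF4 and IRF8 bind with partners such as PU.1 and direct lymphoid and myeloid development. IRF8 in particular is known as a determinant of the monocyte and dendritic cell lineages at the expense of granulocytes.

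Each peak carried a score, which is minus 10 times the log10 of the peak caller's p-value, so that the calling threshold of 1e-05 corresponds to 50. The score grows with sequencing depth, which is unknown, and 116 DMSO and 86 MC2580 peaks share the value 3100, so that scores do not rank peaks there. In the windows the scores ranged from 52.84 to 3100 in DMSO, with a median of 102.7 (95% order-statistic interval 71.22 to 204.22), and the median of the whole DMSO list was 91.08. After MC2580 they ranged from 50.61 to 1550.37, with a median of 90.64 (58.14 to 128.96), and the whole list had a median of 78.10. These intervals, and those of the shares below, cover counting error only. They treat peaks as independent, which neighbouring peaks need not be.

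The question of how many of the 9 genes had GSE1 nearby was answered first. In DMSO, 6 genes had at least 1 peak in the window (IRF1, IRF2, IRF4, IRF5, IRF7 and IRF2BP2), whereas 47.9% of all protein-coding genes did. After MC2580 there were 7, the same 6 and IRF8, beside 27.3% of all genes. Thus 6 members had peaks of both lists, a state found for 25.1% of all genes. IRF8 alone had an MC2580 peak without a DMSO peak, as did 2.17% of all genes. The windows of IRF3 and IRF9 held no peak of either list, which was the case for 49.9% of all genes. With 9 genes, a single gene moves such a share by 11.1 percentage points.

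**Figure D1:**
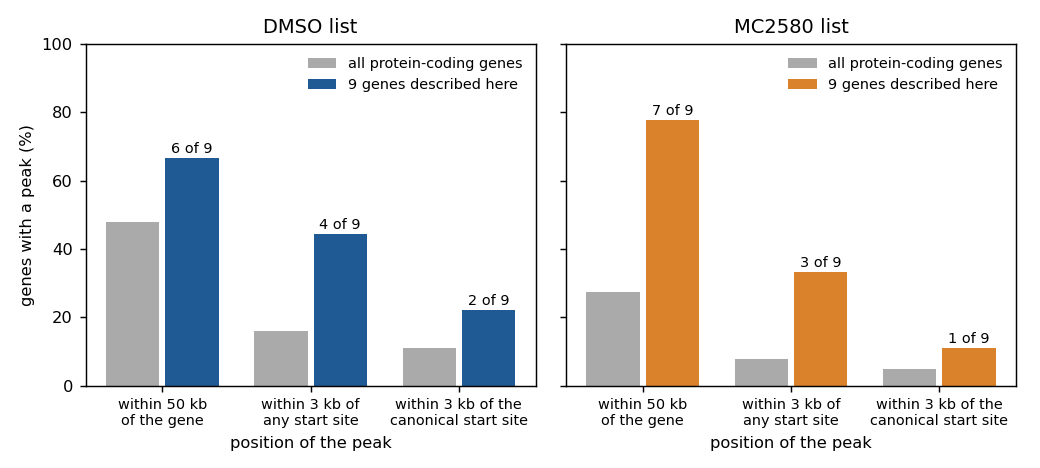
Percentage of genes with a peak in each list (vertical axis), for all protein-coding genes (grey) and for the 9 genes (coloured, with their number), by position of the peak. In both lists the bars of the 9 genes, 6 of 9 and 7 of 9 for the window, stand above the grey bars of 47.9% and 27.3%, and they rest on few genes.

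The peaks were spread unevenly. IRF4 and IRF5 held 22 of the 33 DMSO peaks and 19 of the 27 MC2580 peaks, and the other 7 genes held 11 and 8. At least 11 DMSO peaks, the number in each of the windows of IRF4 and IRF5, were found around 3.21% of all genes, and a DMSO peak with a score of at least 1000, also present in both windows, around 2.31%. Both limits were set after the values were seen. The windows covered 1.14 Mb in all, with 29.1 DMSO and 23.8 MC2580 peaks per Mb, and the whole genome had 6.85 and 4.20. The genome value also counts stretches far from genes, so that it is not a value for gene windows. In DMSO the windows of IRF4 and IRF5 had 91.9 and 97.7 peaks per Mb, and the other 7 had 0 to 35.7. The median window of the 9 genes, 113 kb, was shorter than that of all protein-coding genes, 127 kb. For each DMSO peak there were 0.818 MC2580 peaks in the windows and 0.618 in the whole lists. This ratio was 0.682 without IRF4, 0.909 without IRF5 and 0.727 without both. It turned below the whole-list value with narrower windows, to 0.556 over the gene spans alone (9 DMSO and 5 MC2580 peaks) and 0.583 with 10 kb on each side (12 and 7), and was 0.855 with 100 kb.

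**Figure D2:**
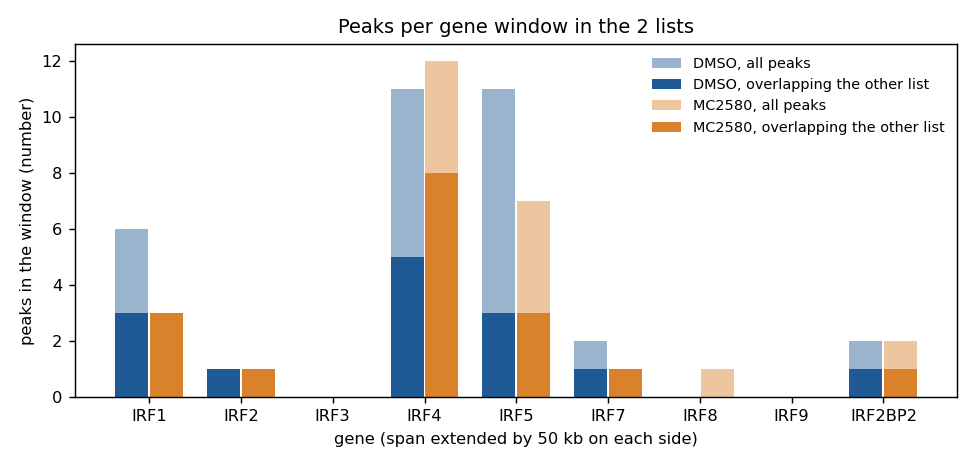
Number of peaks in the window of each gene (vertical axis), DMSO in blue and MC2580 in orange. The dark part of each bar counts peaks that overlap a peak of the other list. IRF4 (11 and 12 peaks) and IRF5 (11 and 7) stand above the other genes, and IRF3 and IRF9 have none.

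Of the DMSO peaks in the windows, 14 of 33, or 42.4% (Wilson 95% interval 27.2 to 59.2), overlapped an MC2580 peak by at least 1 bp, and 33.6% of the whole DMSO list did. Of the MC2580 peaks, 17 of 27, or 63.0% (44.2 to 78.5), overlapped a DMSO peak, beside 58.0% of the whole list. Both intervals contain the value of the whole list, but they may be too narrow, as many of these peaks are neighbours at IRF4 or IRF5. In 12 cases a single DMSO peak matched a single MC2580 peak, and the score was lower after MC2580 in 10 of them. Their ratios of MC2580 to DMSO score ranged from 0.184 at IRF1 to 1.10 at IRF4, with a median of 0.476. The median over the 5449 such pairs of the genome was 0.638, and 76.7% of them were lower after MC2580.

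**Figure D3:**
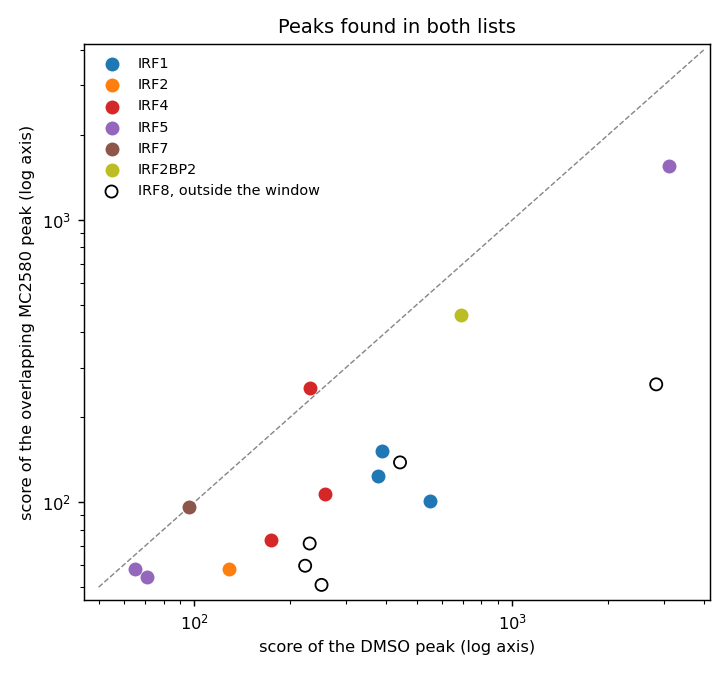
Score of each DMSO peak (horizontal log axis) against the score of the single MC2580 peak that overlaps it (vertical log axis), coloured by gene. Open circles are peaks upstream and downstream of IRF8 outside its window. Points under the dashed line of equal scores, 10 of the 12 window pairs, had a lower score after MC2580.

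Among the IRFs that induce interferon, IRF5 had the strongest GSE1 peak of all windows. IRF5 acts downstream of Toll-like receptors and MyD88 and drives inflammatory cytokine genes. Its span is chr7:128937457-128950038 on the plus strand. The strongest peak, 128947555 to 128949746 in DMSO, had a score of 3100, above 99.4% of the list, and its counterpart at 128947989 to 128949750 after MC2580 had 1550.37, above 98.5% of that list. The ratio of 0.500 involves the value at which scores are tied. The DMSO peak began 9628 bp downstream of the canonical transcription start site (TSS) and overlapped the last 3 of the 9 exons of the canonical transcript, over 755 coding bases and 931 bases of UTR. A start site of a retained-intron transcript at 128947606 also lies in it, so that the annotation places the peak at a promoter, although it lies at the 3′ end of the gene.

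IRF5 also had weaker peaks at its start. In DMSO the peak at 128936957 to 128937907 scored 71.22 and ended 20 bp upstream of the canonical TSS, and after MC2580 the peak at 128937266 to 128938018 covered that TSS with a score of 54.17. A further DMSO peak, 128939854 to 128941699, lay 1927 bp downstream of the canonical TSS with a score of 300.29 and had no MC2580 counterpart. Neither had the DMSO peak at 128943533 to 128944477, 5606 bp downstream, with 63.38. IRF5 was thus the only one of the 9 genes with peaks of both lists within 3 kb of its canonical TSS. The remaining 7 DMSO peaks of the window scored between 52.84 and 102.68 and lay in or near KCP, TNPO3 and a pseudogene. The highest of these, 128923660 to 128925011 with 102.68, lay 12916 bp upstream of the canonical TSS and had no MC2580 counterpart, and another, with 64.91, overlapped an MC2580 peak with 57.77. An MC2580 peak at 128928380 to 128929913, 8014 bp upstream of the canonical TSS, scored 128.96 without a DMSO peak, and so did one at 128913770 to 128914842, 23085 bp upstream, with 90.64. The 200 bp nearest to the centre of the strongest IRF5 peak that contain no annotated UTR are shown because this peak outranks the others. The whole stretch is in lower case because it holds none of the factor words counted later in the text.
IRF5, chr7:128948373-128948572, plus strand: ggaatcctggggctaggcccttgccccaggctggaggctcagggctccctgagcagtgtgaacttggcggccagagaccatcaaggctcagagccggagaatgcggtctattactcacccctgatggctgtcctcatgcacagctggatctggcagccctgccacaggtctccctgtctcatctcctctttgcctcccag

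IRF7, the master regulator of type I interferon production, had 2 DMSO peaks and 1 MC2580 peak, all upstream of the gene (chr11:612553-615983, minus strand). The DMSO peak at 627905 to 628849 scored 59.28, was 11955 bp from the canonical TSS of IRF7 and lay closest to SCT. The other DMSO peak, 642252 to 643155 with 95.96, overlapped the MC2580 peak at 642402 to 643171 with 96.45, a ratio of 1.01. Both lay about as far from IRF7, 26302 and 26452 bp upstream, and the nearest TSS was that of DRD4. Of the 6 windows with peaks of both lists, this was the one in which the highest score was not lower after MC2580. Its centre is shown because it is built of repeated units: shifted by 28 bases it matched itself at 76.2% of the 172 bases compared, whereas the other sequences printed here reached 32.9% to 40.1% at their best shift. How such a repeat bears on the mapping of unique reads was not tested.
IRF7, chr11:642687-642886, minus strand: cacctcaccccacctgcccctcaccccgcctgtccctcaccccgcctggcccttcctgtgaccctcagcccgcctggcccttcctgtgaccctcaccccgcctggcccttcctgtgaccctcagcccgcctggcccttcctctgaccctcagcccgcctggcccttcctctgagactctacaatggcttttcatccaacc

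IRF3, which is activated by TBK1 in response to viral nucleic acids, had no peak in its window (chr19:49659569-49665875, minus strand). The nearest DMSO peak lay 97236 bp downstream of the canonical TSS and scored 196.86, and the MC2580 peak that overlapped it scored 68.43, a ratio of 0.348. GSE1 was thus not called near IRF3, which at an unknown depth does not show that it is absent there.

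Among the regulators of interferon-stimulated genes, IRF1 had the most peaks. IRF1 is itself induced by interferon gamma and activates antigen presentation and antiviral genes. It is annotated with 50 transcripts from 28 start sites on the minus strand of chr5:132440440-132508719 and overlaps a read-through coding gene and the antisense transcript IRF1-AS1. The strongest of its 6 DMSO peaks, 132455609 to 132458094, scored 551.25, and the overlapping MC2580 peak, 132455560 to 132456896, scored 101.24. The ratio of 0.184 was the lowest of the 12 pairs. This peak lay 2587 bp upstream of an internal start site, whose transcript has no defined coding sequence, and 32679 bp downstream of the canonical TSS.

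The other shared IRF1 peaks also scored lower after MC2580. The DMSO peak at 132465971 to 132467418 scored 390.25 and its MC2580 counterpart 151.69, a ratio of 0.389. The DMSO peak at 132426300 to 132427415, over the start of LINC02863, scored 377.76 and its counterpart 123.59, a ratio of 0.327. All 3 MC2580 peaks of the window were therefore shared with DMSO and lower in score. The DMSO peak at 132495490 to 132496506, with 104.42, covered the start site of a coding IRF1 transcript at 132496467, 4717 bp upstream of the canonical TSS, and had no MC2580 counterpart. Neither had the DMSO peaks with 101.56 and 52.96. No peak of either list lay within 3 kb of the canonical TSS. The centre of the strongest IRF1 peak is shown as the site with the lowest ratio among the 12 pairs.
IRF1, chr5:132456752-132456951, minus strand: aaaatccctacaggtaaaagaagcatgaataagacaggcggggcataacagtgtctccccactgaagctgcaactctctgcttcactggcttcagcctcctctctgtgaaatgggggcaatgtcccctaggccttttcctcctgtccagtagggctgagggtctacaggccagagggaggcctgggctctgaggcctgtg

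IRF2, which competes with IRF1 for the same DNA sites and mostly represses them, had a single peak in each list, inside the gene (chr4:184385702-184474558, minus strand). The DMSO peak at 184394372 to 184395495 scored 128.73 and the MC2580 peak at 184394394 to 184395232 scored 58.14, a ratio of 0.452. They lay 1400 and 1422 bp upstream of the start of an internal transcript without a defined coding sequence, and 79055 and 79318 bp downstream of the canonical TSS. The centre of the DMSO peak is shown because it held 3 of the words counted, in capitals: RUNX, GFI1 and CEBP, each on the strand opposite to the word as written later in the text.
IRF2, chr4:184394834-184395033, minus strand: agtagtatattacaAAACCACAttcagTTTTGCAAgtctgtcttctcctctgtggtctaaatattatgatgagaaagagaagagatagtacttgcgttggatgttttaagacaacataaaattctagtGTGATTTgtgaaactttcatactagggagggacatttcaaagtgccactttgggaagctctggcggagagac

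IRF9, the DNA-binding subunit of the ISGF3 complex of the type I interferon response, had no peak of either list in its window (chr14:24161234-24168043, plus strand). The nearest DMSO peak lay 116203 bp downstream of the canonical TSS and scored 174.15, and the MC2580 peak there scored 60.2, a ratio of 0.346. The nearest annotated TSS to this site belongs to ENSG00000286825. The centres of both peaks, which overlap, held the short word of the interferon-stimulated response element (ISRE), the motif that ISGF3 binds. The DMSO centre also held the PU.1 and GATA words. In the whole lists, 2.98% of DMSO and 3.19% of MC2580 centres held the ISRE word, and binding by ISGF3 was not tested.

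Among the lineage factors, IRF4 lay beside a dense run of peaks. IRF4 is needed for plasma cells and for dendritic cell and macrophage subsets. Its window held 11 DMSO and 12 MC2580 peaks, which covered 20.0% and 11.6% of it, yet all of them lay upstream of the gene (chr6:391739-411443, plus strand), with no peak in the gene or within 3 kb of any of its start sites. The nearest DMSO peak was 9252 bp upstream of the canonical TSS and scored 66.05, and the nearest MC2580 peak was 10324 bp upstream and scored 73.35. The run continued beyond the window, over DUSP22. Between 100 and 50 kb upstream of the canonical TSS there were 20 DMSO and 19 MC2580 peaks, and in the last 50 kb before it there were 10 and 11. From 150 to 100 kb upstream there were 7 and 0, and from the TSS to 250 kb downstream none.

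The strongest peak of the IRF4 window, 338720 to 344283 with a score of 1267.21 in DMSO, reached across the window's edge and lay at DUSP22. It overlapped MC2580 peaks at 340615 to 342546 with 438.67 and at 343466 to 344164 with 51.16. The widest, 350912 to 358999 (8088 bp) with 875.61, overlapped 3 MC2580 peaks with 165.68, 163.55 and 86.48. These 2 wide DMSO peaks were matched by several narrower and lower ones after MC2580. The reverse was also seen in the run just outside the window, where the MC2580 peak at 313746 to 316360 with 252.89 overlapped 3 narrower DMSO peaks with 87.29, 149.27 and 116.63. Of the peaks matched by a single one, 371782 to 374676 had 258.12 and 107.1 (ratio 0.415), and 379368 to 381445 had 174.67 and 73.35 (0.420). At 366558 to 368255 in DMSO the score was 231.32, and the MC2580 peak at 366590 to 369270 was wider and had 253.99, a ratio of 1.10, the highest of the 12 pairs. The 6 unshared DMSO peaks scored 63.28 to 176.2 and the 4 unshared MC2580 peaks 50.61 to 120.32. Just outside the window the nearest peaks scored 422.69 in DMSO and 100.91 after MC2580. The centre of the strongest peak is shown with its AP-1 word in capitals, a word found in 1 of the 33 DMSO centres.
IRF4, chr6:341402-341601, plus strand: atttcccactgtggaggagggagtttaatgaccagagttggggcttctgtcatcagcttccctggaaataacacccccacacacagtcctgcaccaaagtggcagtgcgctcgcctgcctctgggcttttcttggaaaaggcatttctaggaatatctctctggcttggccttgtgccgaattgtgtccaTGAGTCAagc

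**Figure D4:**
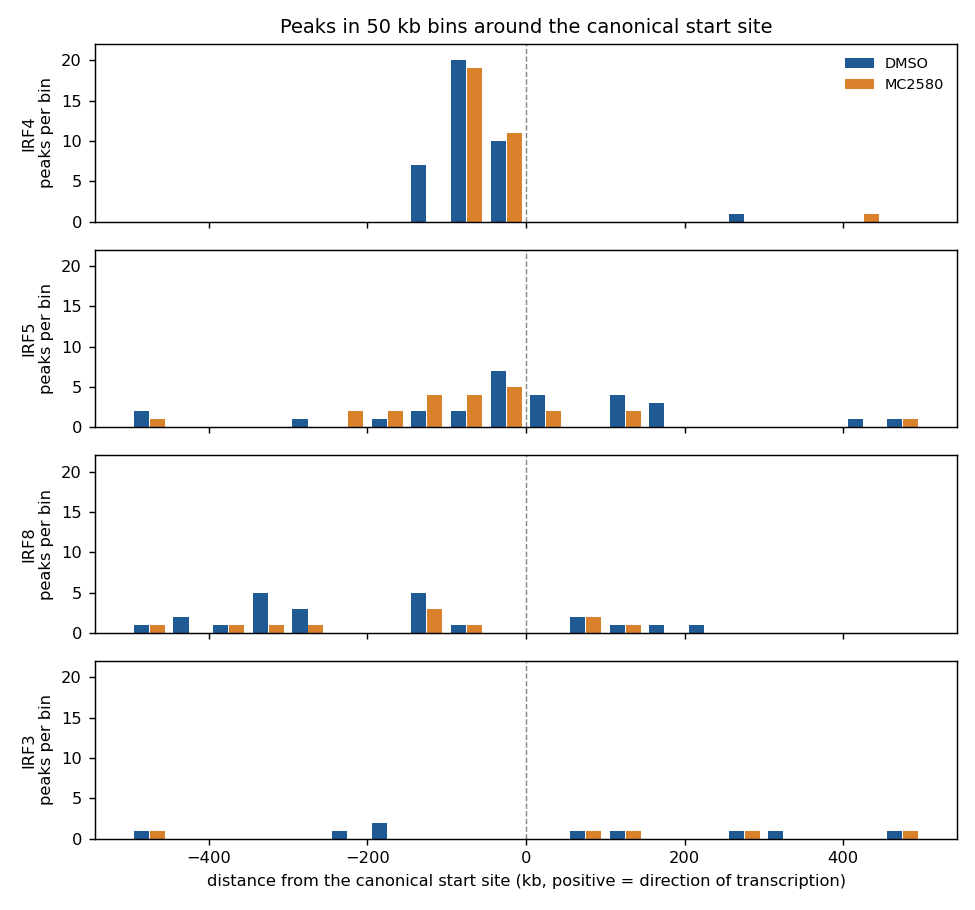
Number of peaks in 50 kb bins (vertical axis) against distance from the canonical TSS in kb (positive in the direction of transcription), DMSO in blue and MC2580 in orange. At IRF4 the bin from 100 to 50 kb upstream holds 20 and 19 peaks, and the bins from the TSS to 250 kb downstream hold none. At IRF5 peaks lie on both sides, at IRF8 the bins next to the TSS are empty, and IRF3 has few peaks at any distance.

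IRF8 had no DMSO peak in its window (chr16:85899116-85922606, plus strand). The single MC2580 peak, 85959467 to 85960128, lay 60305 bp downstream of the canonical TSS. Its score of 55.34 was close to the threshold of 50, and 18.1% of the MC2580 list scored lower. Outside the window, however, lay a peak with a higher DMSO score than every window peak but the strongest at IRF5. It was chosen for description after its values were seen. At 85829071 to 85830696, 68466 bp upstream of the canonical TSS, the DMSO score was 2835.82, rank 137 of the list, and the overlapping MC2580 peak at 85829294 to 85830449 had 261.54. The ratio was 0.0922, and 41 of the 5449 one-to-one pairs of the genome had a lower one. This site is intergenic, and the nearest annotated TSS, 12535 bp away, belongs to ENSG00000214259. Downstream of the window, a DMSO peak with 223.12 at 82873 bp from the canonical TSS had an MC2580 counterpart with 59.56, a ratio of 0.267.

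The gene of GSE1 itself, chr16:85169525-85676204, ends 222911 bp before IRF8. As the vector carries the coding sequence of GSE1, reads from it can align to GSE1 exons, and that gene held 18 DMSO and 8 MC2580 peaks. Between the end of GSE1 and the start of IRF8 there were 6 DMSO and 4 MC2580 peaks, the strong upstream peak among them. Any part of the vector in the peaks inside the GSE1 gene was not tested. The upstream peak is shown because its ratio was the lowest of the one-to-one pairs described, with a CEBP word in capitals, and the MC2580 window peak is shown beside it as the only one inside the window.
IRF8, upstream peak, chr16:85829784-85829983, plus strand: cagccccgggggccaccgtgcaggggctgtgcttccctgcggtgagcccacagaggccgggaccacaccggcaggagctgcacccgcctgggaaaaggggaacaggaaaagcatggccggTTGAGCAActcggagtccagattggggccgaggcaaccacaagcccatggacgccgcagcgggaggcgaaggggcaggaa
IRF8, window peak in MC2580, chr16:85959698-85959897, plus strand: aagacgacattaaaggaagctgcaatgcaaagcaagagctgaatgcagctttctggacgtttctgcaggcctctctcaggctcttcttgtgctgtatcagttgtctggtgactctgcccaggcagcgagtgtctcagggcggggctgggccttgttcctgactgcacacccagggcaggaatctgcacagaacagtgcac

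IRF2BP2, a co-repressor of IRF2 that also restrains inflammatory macrophage genes, had 2 peaks in each list (chr1:234604269-234610178, minus strand). The DMSO peak at 234612211 to 234613943 lay 2033 bp upstream of the canonical TSS, scored 204.22 and had no MC2580 counterpart. The other DMSO peak, 234558053 to 234559166, lay 51012 bp downstream and scored 687.66, and the MC2580 peak at 234558202 to 234559164 scored 461.96, a ratio of 0.672. The second MC2580 peak, 234555172 to 234555956, was unshared and scored 55.14. The promoter-proximal peak was therefore called in DMSO only, whereas the stronger distal peak was called in both lists. Both DMSO centres are shown, the second with its CEBP word in capitals and chosen after its score was seen.
IRF2BP2, promoter-proximal, chr1:234612977-234613176, minus strand: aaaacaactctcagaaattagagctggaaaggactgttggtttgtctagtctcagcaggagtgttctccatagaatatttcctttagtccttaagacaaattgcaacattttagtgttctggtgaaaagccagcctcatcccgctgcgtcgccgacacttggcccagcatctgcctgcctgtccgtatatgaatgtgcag
IRF2BP2, downstream, chr1:234558510-234558709, minus strand: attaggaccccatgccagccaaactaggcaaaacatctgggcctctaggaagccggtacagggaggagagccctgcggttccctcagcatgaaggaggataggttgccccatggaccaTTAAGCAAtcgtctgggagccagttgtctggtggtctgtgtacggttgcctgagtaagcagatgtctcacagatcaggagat

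**Figure D5:**
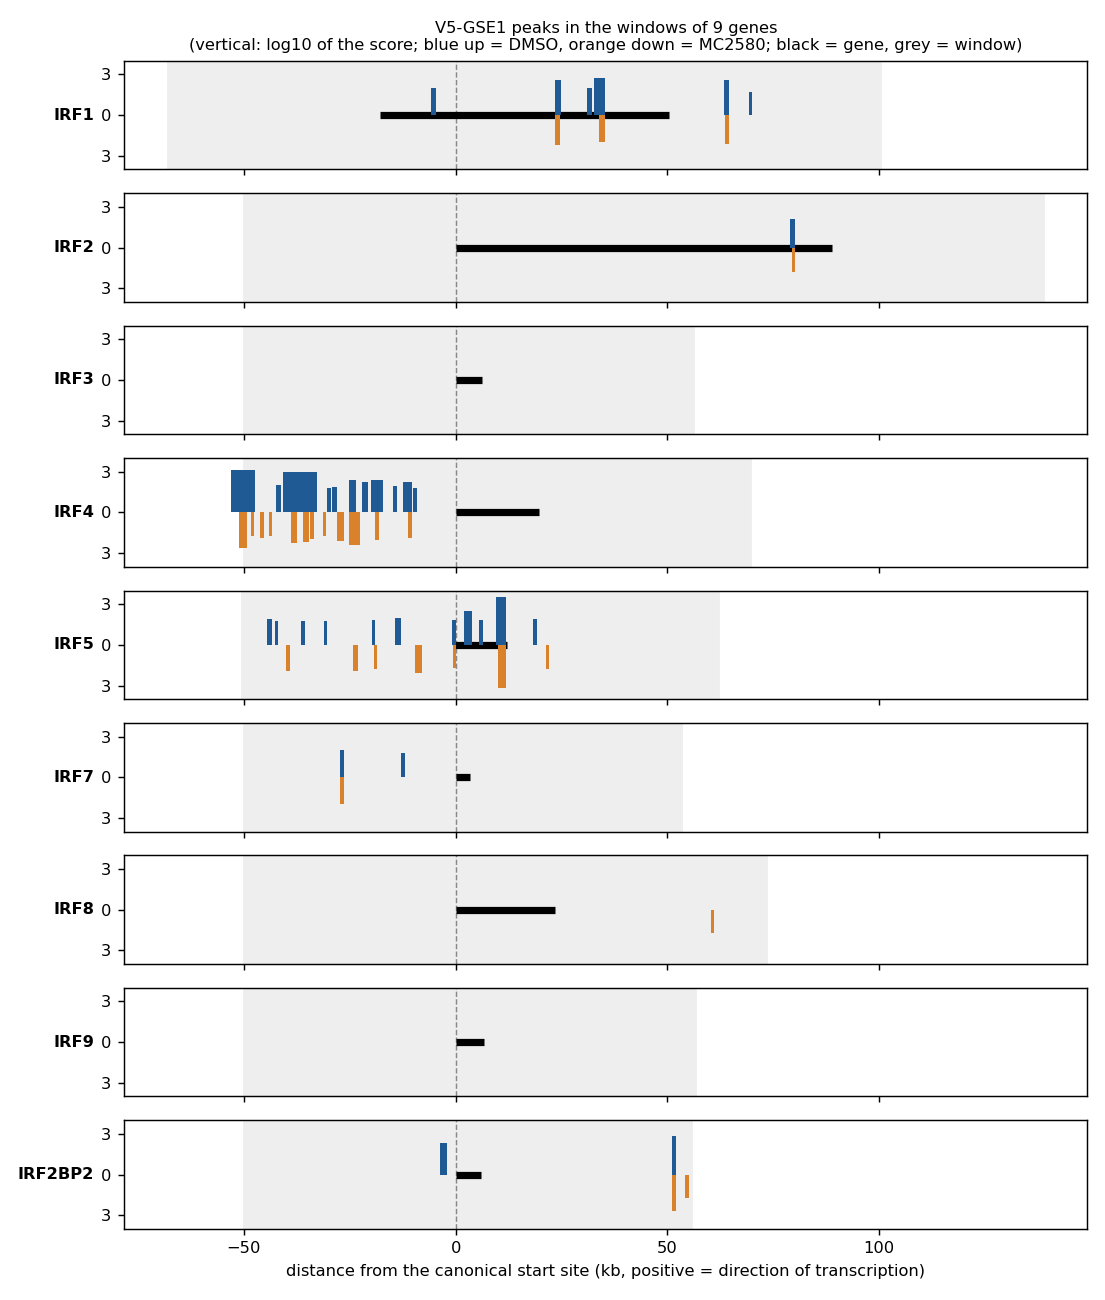
Peaks in the window of each gene (grey), by distance from the canonical TSS in kb (horizontal axis, positive in the direction of transcription), with the log10 of the score as bar height, DMSO upwards in blue and MC2580 downwards in orange. Black lines are the genes, and the narrowest peaks are drawn slightly wider than to scale. All IRF4 peaks lie before the gene, the tallest IRF5 bars (scores 3100 and 1550.37) lie at its 3′ end, and the windows of IRF3 and IRF9 are empty.

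Some of these peaks lay at the promoters of the 9 genes. Within 3 kb of any annotated TSS, 4 genes (44.4%) had a DMSO peak (IRF1, IRF2, IRF5 and IRF2BP2), beside 16.1% of all protein-coding genes. An MC2580 peak was there at 3 (33.3%: IRF1, IRF2 and IRF5), beside 7.87%. Genes with more start sites offer more positions: IRF1 had 28 and IRF5 20, though IRF9, with 56, had no peak. At the canonical TSS alone there remained IRF5 and IRF2BP2 in DMSO (22.2%) and IRF5 after MC2580 (11.1%), beside 11.0% and 4.77% of all genes. The calls at IRF2 in both lists and at IRF1 after MC2580 thus depended on internal start sites without a defined coding sequence. Of the 33 DMSO window peaks, 15 were nearest to a start site of the member itself, and of the 27 MC2580 peaks 8 were.

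By annotation, 15 of the DMSO window peaks (45.5%) were promoter peaks of some gene, 4 (12.1%) exonic, 2 (6.06%) intronic and 12 (36.4%) intergenic, and the whole list had 35.2%, 6.94%, 32.5% and 24.1%. After MC2580 there were 8 promoter (29.6%), 2 exonic (7.41%), 3 intronic (11.1%) and 14 intergenic peaks (51.9%), beside 31.0%, 7.43%, 33.6% and 26.0%. Among these classes, intronic peaks had the lowest share relative to the whole lists in both conditions. The run before IRF4 supplied 8 of the 12 DMSO and 8 of the 14 MC2580 intergenic peaks. Peaks on unplaced sequence, 1.20% of the DMSO and 1.98% of the MC2580 list, could not lie in the windows.

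The factors that IRFs bind with were then followed through short consensus words on both strands in the central 200 bp of each window peak. These were the ISRE (2 GAAA units separated by 2 bases), the ETS-IRF composite element (EICE), PU.1 (GAGGAAGT), RUNX (TGTGGTTT), GFI1 (AAATCAC), AP-1 (TGANTCA), CEBP (TTGCNNAA) and the word of GATA factors (AGATAA). The ISRE and EICE words differ in 1 letter and can overlap in one stretch. In DMSO the ISRE, the EICE and the PU.1 word were found in 0 of 33 peaks, and a count of 0 allows 3 counts, or a share of up to 9.09% (10.4% as the upper Wilson limit), and the whole list had 2.98%, 2.46% and 2.92%. After MC2580 the ISRE and the PU.1 word were each found in 1 of 27 peaks (3.70%), beside 3.19% and 1.91%, and the EICE in 0, which allows up to 11.1% (Wilson 12.5%), beside 2.75%. CEBP was found in 5 DMSO peaks (15.2%, Wilson 95% interval 6.65 to 30.9) and 4 MC2580 peaks (14.8%, 5.92 to 32.5), beside 13.9% and 11.0% of the lists. AP-1 was found in 1 DMSO peak (3.03%, 0.537 to 15.3) and 4 MC2580 peaks (14.8%, 5.92 to 32.5), beside 9.25% and 7.66%. The word of GATA factors was found in 1 DMSO peak (3.03%, 0.537 to 15.3) and 1 MC2580 peak (3.70%, 0.657 to 18.3), beside 10.7% and 10.6%. RUNX was found in 1 peak of each list (3.03% and 3.70%), beside 4.61% and 3.13%, and GFI1 in 1 (3.03%) and 2 (7.41%), beside 3.74% and 2.99%.

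The genes that act with the IRFs were covered by a list of 48 other interferon pathway genes. This list, too, was chosen with earlier results of these data known. In each role, the genes named for promoter peaks are those with the highest DMSO promoter scores. That choice by itself favours lower or absent MC2580 scores, so that the scores of both lists are given as description only. Of these, 38 (79.2%) had a DMSO peak in the window and 14 (29.2%) an MC2580 peak, and 14 (29.2%) and 5 (10.4%) had one within 3 kb of a start site, against the background given above of 47.9%, 27.3%, 16.1% and 7.87%. Among 3 further family and co-repressor genes, IRF2BP1 alone had promoter peaks, with highest scores of 304.92 in DMSO and 137.22 after MC2580. These peaks, at 45880899 to 45883311 and 45886981 to 45888374, did not overlap. Among 17 sensors, adaptors and kinases upstream of IRF3, IRF5 and IRF7, 14 had a DMSO window peak and 6 an MC2580 peak. The promoters of IKBKE, a kinase of IRF3, and RIGI, an RNA sensor, had DMSO peaks with 300.15 and 264.54 and no MC2580 peak, and that of TLR9, a DNA sensor, had 228.02 and 65.93.

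Among 12 receptor and JAK-STAT genes, 9 had a DMSO and 3 an MC2580 window peak. TYK2, a kinase of the interferon receptors, overlapped a DMSO peak 127639 bp wide and an MC2580 peak 63092 bp wide, each with the tied score of 3100, so that it stands for a domain with many genes. The promoter of IFNGR2, a subunit of the interferon gamma receptor, had a DMSO peak with 127.97 and no MC2580 peak. JAK2, a kinase bound to that receptor, had 3 DMSO peaks and no MC2580 peak within 3 kb of a start site. The highest-scoring, 5122048 to 5123234 with 78.69, lay 2731 bp from a start site inside the gene span, chr9:4984390-5129948. Within 3 kb of the canonical TSS of JAK2 there were 2 DMSO peaks. All 5 DNA-binding partners had a DMSO window peak and 2 an MC2580 one, but only IKZF1, a lymphoid zinc finger factor, had promoter peaks. The highest scored 363.94 in DMSO, at 50308151 to 50311141, and 65.5 after MC2580, at 50304186 to 50305119. These are different sites. Of 11 target genes, 8 and 2 had a window peak, and 4 had a promoter peak in DMSO and 0 after MC2580. The highest were IFIT3 with 537.37 and OAS1 with 126.65, both antiviral effectors, and IFNB1, the interferon beta gene, with 82.66. The IFIT3 peak lay at a start site other than the canonical one. Beside the 9 genes described above, this list had the higher share of windows with a DMSO peak, 79.2% and 66.7%, and the lower share with an MC2580 peak, 29.2% and 77.8%, and these differences were not tested. Windows of neighbouring genes can share peaks, as those of IFNAR1 and IFNGR2 did at the peak with 127.97. The windows of IRF2BP1, RIGI, JAK2 and IKZF1 held 35, 29, 25 and 24 DMSO peaks, so that their promoter peaks were not isolated calls. At least 11 DMSO peaks were found around 3.21% of all genes.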

How the data were processed

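Alignment by the authors was to hg38, with Bowtie (4.8.2 in the submitters' processing notes) and unique matches only. Enriched regions were found by them with MACS, using 1e-05 as the p-value limit and the matching input and the EV ChIP as background. How both backgrounds were combined is not given in the sources used here. The deposited files held positions and a score per peak, which is minus 10 times the log10 of the p-value. Read depth is unknown. Peak names in DMSO ran to 22566 for 21401 peaks, hence 1165 numbers were skipped, whereas 0 were skipped in MC2580. Whether a filter was applied to the DMSO list alone is not given in the sources used here, and its bearing on the peak ratio and the overlaps was not tested.

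From these files, peaks overlapping each gene span extended by 50 kb were counted, with coordinates from 1. Distances run from the nearest edge of the peak to the TSS, and the canonical TSS is that of the Ensembl canonical transcript in GENCODE version 44. Promoters were within 3 kb of a TSS. Shared peaks overlapped by at least 1 bp. Sequences are of hg38, on the strand of the gene. The members and lists were chosen with earlier results of these data known.

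Named peaks were all those within 3 kb of a member's TSS, every MC2580 peak of windows with 5 or fewer (otherwise the 3 highest-scoring) and the 3 highest-scoring DMSO peaks, and in each pathway role the 3 genes with the highest DMSO promoter scores. Other peaks were added after their values were seen. With 1 library per group no test was made. Alternatives were other window and promoter distances, a score of at least 100, leaving out genes, other overlap rules and 400 bp word windows. The interval and word functions were tested on simulated data. Python 3.11.15, numpy 2.4.6, scipy 1.17.1, pysam 0.24.0 and matplotlib 3.10.9 were used.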

Additional observations from a re-analysis of the deposited data

How the results depend on the processing

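Of 118 values recomputed under alternatives, 94 stayed within tolerance and 24 moved. Some of the 94 could not move: IRF3 and IRF9 had no window peaks and IRF8 no DMSO one, so that leaving them out changed nothing there. The tolerance was a factor of 1.5 for counts, and for shares and medians the 95% interval of the reported value, which is wide for word counts of 0 to 5. The number of window peaks depended most on the window: with no extension there were 9 DMSO and 5 MC2580 peaks at 3 genes in each list, and all 5 MC2580 peaks (100%) overlapped a DMSO peak. With 10 kb there were 12 and 7 peaks, and 3 genes with an MC2580 peak, and with 100 kb 62 and 53 peaks. When peaks scoring under 100 were removed, 18 and 12 remained, with medians of 244.7 and 157.6, 4 genes with an MC2580 peak, and 83.33% of MC2580 peaks overlapping DMSO. Leaving out IRF4 left 15 MC2580 peaks, and leaving out IRF4 and IRF5, chosen after seeing the data, 11 and 8. Promoters within 1 kb held peaks for 2 and 1 genes, as did the canonical TSS alone, also chosen after seeing the data, and coding transcripts alone gave 1 gene in MC2580. No paired analysis was possible because each group held 1 library and no test was made. Depth limits what is missing from a list: a site without a peak, as at IRF3 and IRF9, may lie under the threshold. The score depends on depth, so that lower scores after MC2580 were not corrected for it.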

Other observations

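Base composition differed between the windows. The median GC content of the central 200 bp of the peaks was 55.0% in the DMSO windows and 51.5% after MC2580, beside 49.0% and 48.0% in the whole lists. By gene it was lowest at IRF2, with 38.0% in DMSO and 43.5% after MC2580, and highest at IRF7, with 62.2% and 68.0%. These values rest on 1 peak in each list at IRF2, and on 2 DMSO peaks and 1 MC2580 peak at IRF7. The MC2580 peak at IRF7 is the one with the repeated units. In the central 400 bp, the EICE was found in 3 DMSO peaks (9.09%) and 1 MC2580 peak (3.70%), beside 4.65% and 4.81% of the lists, and the GFI1 word in 4 (12.1%) and 4 (14.8%), beside 6.99% and 6.10%. The word of GATA factors was found in 2 DMSO peaks (6.06%, Wilson 95% interval 1.68 to 19.6) and 3 MC2580 peaks (11.1%, 3.85 to 28.1), beside 19.7% and 19.8% of the lists. The DMSO interval ended just under the share of its list, which was the case for no other word in either list. It was picked out of all words, lists and widths after the values were seen. At 200 bp the DMSO interval of this word (0.537 to 15.3) contained the 10.7% of the list. The ISRE was still found in 0 of 33 DMSO peaks, beside 5.95%.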
